A study of Mus musculus with 42 samples.

Results

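The genes described here are 7 that mark the cortical thymic epithelium or instruct developing thymocytes: Foxn1, Prss16, Ly75, Dll4, Il7, Kitl and Tbata. They were taken by symbol from a count table of 53465 mouse genes, and all 7 passed the filter on low counts that left 23040 genes for testing. The study asked what loss of the transcriptional corepressor Ski in thymic epithelial cells (TEC) does to their RNA, and sequenced 42 libraries made from 200 sorted cells each. Sorted cells were MHCII-high medullary TEC (Epcam+CD45-UEA+Ly51loMHCIIhi), MHCII-low medullary TEC (Epcam+CD45-UEA+Ly51loMHCIIlo) and cortical TEC (Epcam+CD45-UEA-Ly51+), called mTEC and cTEC here. Each cell type came from 3 genotypes, labelled KO (TEC-specific deletion of Ski, 7 libraries per cell type), Ski flox Control (2 libraries per cell type) and Control (5 libraries per cell type). The sources used here do not give the Cre driver, the alleles carried by either control, the age of the animals or which libraries came from the same animal. The p-values below therefore measure only the spread between these libraries, part of which may be technical.

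FOXN1 is the transcription factor on which the differentiation of thymic epithelium depends, and genes it drives include Psmb11, which encodes the thymoproteasome subunit β5t, and Dll4. PRSS16 is a serine protease of cortical epithelium used in making peptides for MHC class II, LY75 (DEC-205) is an endocytic receptor on cTEC and also on dendritic cells, and TBATA (also called SPATIAL) is a thymic epithelial protein that binds the neddylation enzyme UBA3. DLL4 is the Notch ligand that commits incoming progenitors to the T lineage, IL-7 sustains early thymocytes through the IL-7 receptor, and KITL (stem cell factor) acts on KIT-bearing progenitors.

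Of the 42 libraries, 40 were used, with 3217251 to 7068077 counts each. The Control libraries left out were MHCII-low mTEC replicate 2 (82 counts) and MHCII-high mTEC replicate 2 (41828 counts), so Control had 4 libraries in each mTEC population. Levels are in CPM, counts per 1000000 counts of the library, with its total scaled by edgeR's TMM normalisation factor. Ski itself was measured at 0 to 16.9 CPM in KO MHCII-high mTEC against 8.20 to 23.0 CPM in Control. In KO MHCII-low mTEC it was at 0.522 to 16.9 CPM against 7.81 to 44.4 CPM in Control. In KO cTEC it was at 0 to 42.2 CPM against 3.36 to 27.1 CPM in Control. The fitted log2 fold change of Ski was -1.12 ± 1.13 (SE), -1.92 ± 1.12 and -0.03 ± 1.07 in the same order of cell types, and no edgeR adjusted p was under 0.05. Against Ski flox Control it was -0.12 ± 1.47, -2.30 ± 1.32 and 2.21 ± 1.72 (edgeR adjusted p 1, 0.686 and 0.948), and in MHCII-low mTEC all 7 KO libraries lay below both Ski flox Control libraries, at 6.504 ± 5.94 CPM in KO and 31.9 ± 0.631 CPM in Ski flox Control (SD). Psmb11 averaged 12.6 and 12.0 CPM in MHCII-high and MHCII-low mTEC against 546 CPM in cTEC over all genotypes, and Aire, the medullary regulator of tissue antigens, averaged 627 and 102 CPM in these mTEC populations against 37.5 CPM in cTEC. The library labelled KO cTEC replicate 5 went against its label, with 6.49 CPM of Psmb11 and 119 CPM of Aire. Some tests of KO cTEC over all libraries are also given without it. Values not marked as without it include it. Among these are the genotype tests of Ski and of other genes beside the members, the fits with detected genes as a term and the fits within a set of library numbers. The libraries also differed by library number, which no label names as a batch: the 21 with higher numbers, all Ski flox Control libraries among them, and the 19 with lower numbers are set side by side where a gene differed between them, a boundary known from earlier results of these data.

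Foxn1 (chromosome 11, 78357577 to 78386558, minus strand, GRCm38) was on average highest in MHCII-high mTEC, not in cTEC. In MHCII-high mTEC it had a lowest, median and highest value of 30.8, 93.9 and 231 CPM in KO, 118 and 107 CPM in Ski flox Control, and 92.9, 131, 2.78 and 37.8 CPM in Control. In MHCII-low mTEC the KO libraries ran from 0 through a median of 23.7 to 99.2 CPM, the Ski flox Control libraries had 1.96 and 18.6 CPM, and the Control libraries had 27.0, 22.6, 0 and 3.13 CPM. In cTEC the KO libraries ran from 0 through a median of 43.2 to 158 CPM, with 26.6 and 6.98 CPM in Ski flox Control and 160, 53.3, 23.7, 0 and 0.530 CPM in Control. The genotypes overlapped in every cell type, and each of the 4 libraries with no Foxn1 count was an MHCII-low mTEC or cTEC library of the higher numbers. Averaged over genotypes, Foxn1 stood at 99.3 CPM in MHCII-high mTEC, 26.5 CPM in MHCII-low mTEC and 48.8 CPM in cTEC, and ranges of neighbouring cell types overlapped.

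Prss16 (chromosome 13, 22002173 to 22009742, minus strand) had the widest gap between cell types. KO MHCII-high mTEC ran from 0 through a median of 21.8 to 87.0 CPM, against 21.4 and 76.6 CPM in Ski flox Control and 55.5, 41.6, 27.8 and 98.2 CPM in Control. KO MHCII-low mTEC ran from 0.348 through 40.3 to 231 CPM, against 3.04 and 10.6 CPM in Ski flox Control and 13.5, 56.0, 3.34 and 47.1 CPM in Control. KO cTEC ran from 3.90 through 1009 to 1942 CPM, against 236 and 409 CPM in Ski flox Control and 3084, 729, 1028, 462 and 59.6 CPM in Control. In the Control genotype every cTEC library stood above every MHCII-low mTEC library. In KO, the library labelled cTEC replicate 5 held the cTEC minimum, and without it the lowest KO cTEC library had 218 CPM.

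Ly75 (chromosome 2, 60292103 to 60383303, minus strand) stayed between 94.8 and 338 CPM in all 14 cTEC libraries. Averaged over genotypes it was lower, but never absent, in mTEC. In Ski flox Control it was not lower in MHCII-low mTEC, at 212 and 209 CPM against 225 and 188 CPM in cTEC. In KO MHCII-high mTEC it ran from 1.07 through a median of 41.7 to 173 CPM, against 95.8 and 94.0 CPM in Ski flox Control and 20.5, 16.7, 76.5 and 123 CPM in Control. In KO MHCII-low mTEC it ran from 4.56 through 40.2 to 104 CPM, against 212 and 209 CPM in Ski flox Control and 27.7, 18.5, 50.3 and 19.5 CPM in Control. In KO cTEC it ran from 94.8 through 242 to 338 CPM, against 225 and 188 CPM in Ski flox Control and 160, 115, 109, 254 and 249 CPM in Control. All 7 KO and all 4 Control MHCII-low mTEC libraries lay below both Ski flox Control libraries of that cell type. The library labelled KO cTEC replicate 5, low in Prss16, held 256 CPM of Ly75, within the range of the other cTEC libraries.

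Tbata (chromosome 10, 61171954 to 61188841, plus strand) was the most abundant of the 7 genes in every cell type. KO MHCII-high mTEC ran from 443 through a median of 525 to 1877 CPM, against 1079.8 and 1711 CPM in Ski flox Control and 951, 1197, 179 and 347 CPM in Control. KO MHCII-low mTEC ran from 45.8 through 125 to 1191 CPM, against 55.6 and 126 CPM in Ski flox Control and 109.9, 564, 57.0 and 28.7 CPM in Control. KO cTEC ran from 83.9 through 2380 to 3721 CPM, against 1198 and 1539 CPM in Ski flox Control and 4667, 910.4, 1968, 1024 and 726 CPM in Control. Genotypes overlapped in each cell type. By genotype-wide means its order was cTEC (1877 CPM), then MHCII-high mTEC (844 CPM), then MHCII-low mTEC (311 CPM). In Ski flox Control the levels in MHCII-high mTEC and cTEC overlapped.

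Dll4 (chromosome 2, 119325784 to 119335962, plus strand) was low and uneven. KO MHCII-high mTEC ran from 0 through a median of 6.93 to 43.1 CPM, against 1.87 and 3.18 CPM in Ski flox Control and 13.7, 0, 12.6 and 10.9 CPM in Control. KO MHCII-low mTEC ran from 0 through 0.348 to 32.6 CPM, against 2.61 and 38.4 CPM in Ski flox Control and 5.40, 23.5, 0 and 16.9 CPM in Control. KO cTEC ran from 0.566 through 39.4 to 113 CPM, against 0.539 and 18.9 CPM in Ski flox Control and 10.01, 12.7, 13.3, 15.3 and 20.2 CPM in Control. The 5 Control cTEC libraries lay close together, while 5 of 7 KO cTEC libraries stood above all of them and 2 below all of them. The span of Dll4 overlaps that of the antisense gene Gm14207 (2878 and 4319 counts in all libraries used). Overlap of their exons was not examined, and no source used here states that strand was kept. Whether reads of either gene were counted for the other is therefore not known. The same holds for Ly75 with Gm13571 (23339 and 1034 counts) and Il7 with Gm16685 (25774 and 6354 counts).

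Il7 (chromosome 3, 7569994 to 7613760, minus strand) was found in all 40 libraries at a like level in the 3 cell types. KO MHCII-high mTEC ran from 51.5 through a median of 134 to 187 CPM, against 170.3 and 114 CPM in Ski flox Control and 228, 153, 117 and 117 CPM in Control. KO MHCII-low mTEC ran from 31.5 through 135 to 538 CPM, against 56.9 and 80.0 CPM in Ski flox Control and 282, 45.4, 158 and 64.3 CPM in Control. KO cTEC ran from 59.0 through 111 to 257 CPM, against 109.95 and 66.2 CPM in Ski flox Control and 268, 53.0, 114, 117 and 116 CPM in Control. Averages over genotypes were 136 CPM in MHCII-high mTEC, 153 CPM in MHCII-low mTEC and 128 CPM in cTEC, a difference well inside the range within any of them.

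Kitl (chromosome 10, 100015630 to 100100416, plus strand) was the scarcest gene, with a count in 31 of 40 libraries and 1428 counts in all. KO MHCII-high mTEC ran from 0 through a median of 0 to 5.94 CPM, against 4.37 and 7.34 CPM in Ski flox Control and 0.273, 1.75, 4.55 and 1.75 CPM in Control. KO MHCII-low mTEC ran from 0 through 3.76 to 7.69 CPM, against 0 and 4.60 CPM in Ski flox Control and 5.40, 76.3, 0.716 and 0 CPM in Control. KO cTEC ran from 0 through 5.96 to 30.0 CPM, against 3.05 and 0.377 CPM in Ski flox Control and 36.9, 12.9, 10.2, 4.63 and 0 CPM in Control. A single Control MHCII-low mTEC library, replicate 3, held 76.3 CPM, more than any other library. A library with no count could still hold a level of up to 0.413 to 0.922 CPM, which is what 3 counts come to at these depths, and this floor covers counting error only. That replicate 3 also had the highest summed level of 8 endothelial markers in MHCII-low mTEC, at 1159 CPM with 0 of the 8 at 0, where the other MHCII-low mTEC libraries had 23.5 to 134 CPM. Endothelial cells express Kitl too, and their part in its Kitl level was not tested.

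**Figure D1:**
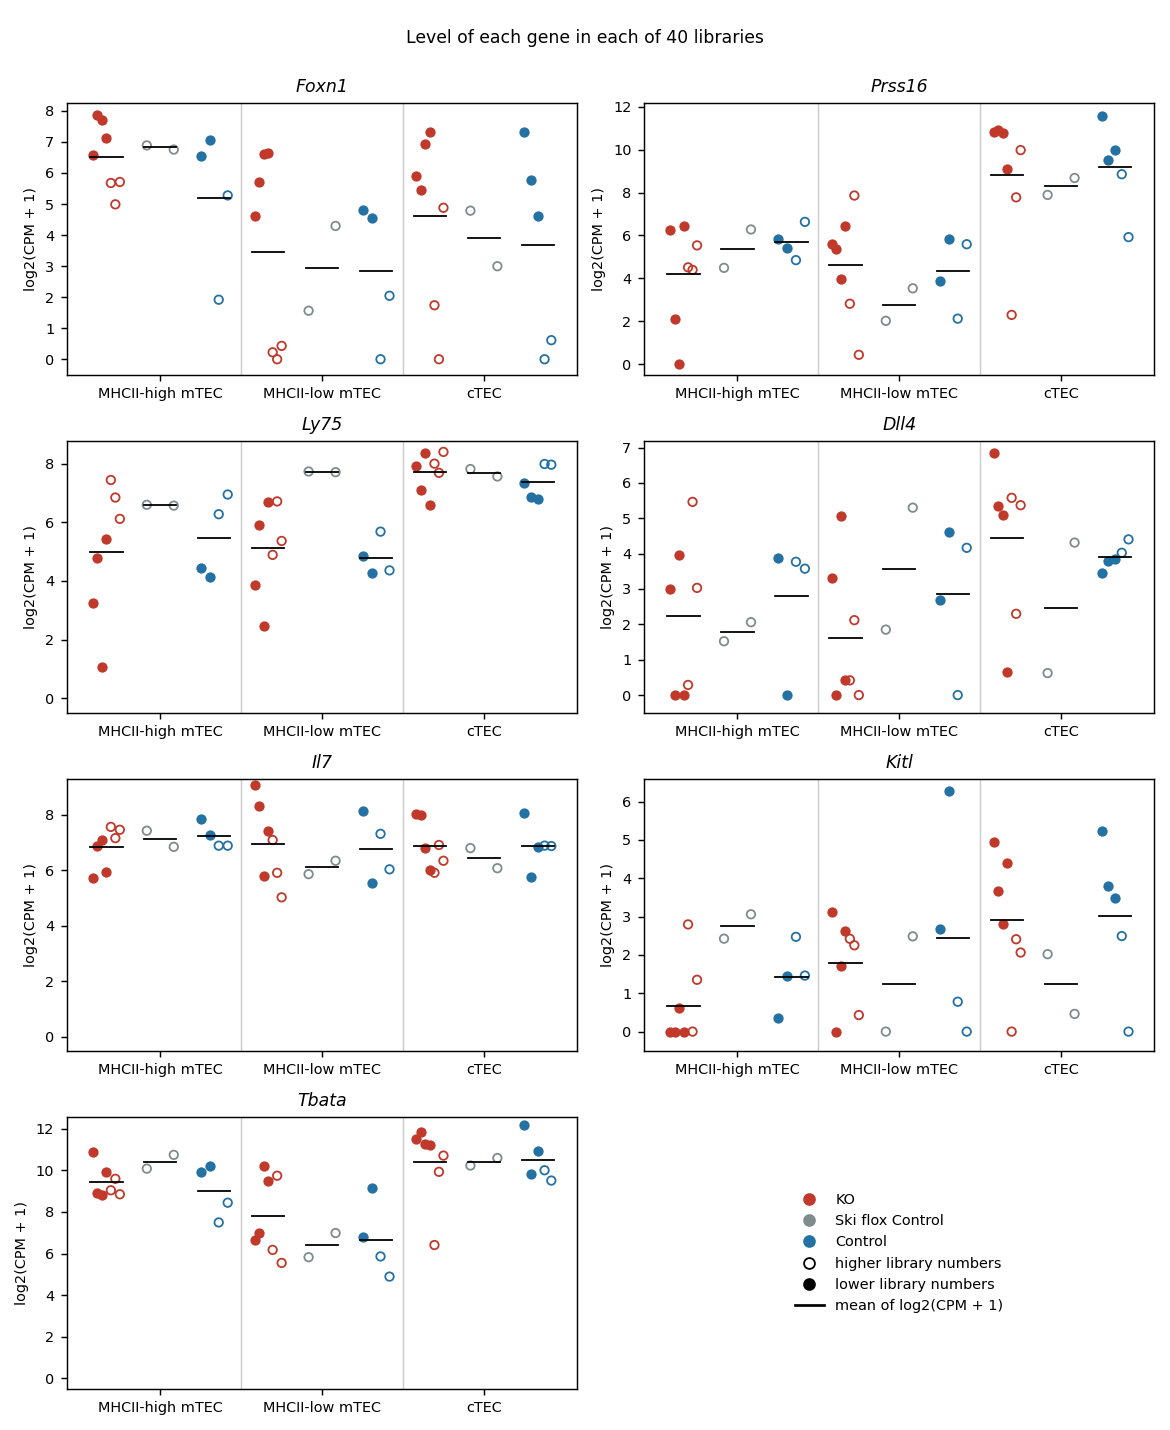
Level of each of the 7 genes in each of the 40 libraries, as log2(CPM + 1), by cell type and genotype; open points are the libraries of higher number, filled points those of lower number, and lines are means of log2(CPM + 1). Averaged over genotypes, Prss16 and Tbata sit highest in cTEC, Foxn1 in MHCII-high mTEC, and Il7 at a like level in all 3 cell types. KO and Control overlap throughout.

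Compared between genes per kilobase of exon, since longer transcripts gather more reads, the mean level in MHCII-high mTEC was 348 CPM per kb for Tbata, then 30.9 for Foxn1, 24.0 for Il7, 10.6 for Prss16, 9.58 for Ly75, 2.28 for Dll4 and 0.365 for Kitl. In MHCII-low mTEC the order by mean CPM per kb was Tbata (128), Il7 (27.0), Prss16 (10.3), Ly75 (9.90), Foxn1 (8.25), Dll4 (2.64) and Kitl (1.44). In cTEC it was Tbata (774), Prss16 (227), Ly75 (30.1), Il7 (22.6), Foxn1 (15.2), Dll4 (6.82) and Kitl (1.73). Prss16 thus took the second place only in cTEC, and Foxn1 only in MHCII-high mTEC. Neighbours in the middle of each order, from Foxn1 to Ly75 in mTEC and from Ly75 to Foxn1 in cTEC, overlapped between libraries.

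MHCII-high mTEC and cTEC were first compared within the KO genotype, where 7 libraries a side gave the most precise fit (edgeR quasi-likelihood test over 23040 genes with Benjamini-Hochberg adjustment, threshold 0.05). Prss16 and Ly75 were lower in MHCII-high mTEC than in cTEC. Prss16 averaged 36.3 ± 34.5 CPM in MHCII-high mTEC and 1040.0 ± 807 CPM in cTEC (SD, n = 7 each), or -4.84 ± 1.10 (SE) as a log2 fold change, and the edgeR adjusted p was 0.00641. Ly75 averaged 62.0 ± 62.4 CPM in MHCII-high mTEC and 229 ± 91.3 CPM in cTEC (SD, n = 7 each), at -1.89 ± 0.63 and an edgeR adjusted p of 0.0422. Those were 2 of 7 members, where 1.82% of all genes tested were called lower. For the other members the log2 fold change was -1.37 ± 0.69 for Tbata (edgeR adjusted p 0.163), -3.20 ± 1.48 for Kitl (0.125), -1.94 ± 1.35 for Dll4 (0.351), -0.13 ± 0.49 for Il7 (0.927) and 0.96 ± 1.21 for Foxn1 (0.661). DESeq2 called 3 members lower, where it called 3.36% of genes, and no member had every MHCII-high library below every cTEC library, against 0.321% of genes. limma voom called Ly75 and Kitl but not Prss16, with Kitl at -3.82 and a limma voom adjusted p of 0.045. The median log2 fold change over the 7 members was -1.89, and over all genes tested 0.28.

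MHCII-low mTEC of the KO genotype gave the same pair of calls. Prss16 averaged 60.8 ± 80.7 CPM in MHCII-low mTEC and 1040.0 ± 807 CPM in cTEC (SD, n = 7 each), with a log2 fold change of -4.10 ± 1.06 and an edgeR adjusted p of 0.0219. Ly75 averaged 50.2 ± 40.1 CPM in MHCII-low mTEC and 229 ± 91.3 CPM in cTEC, at -2.19 ± 0.64 (edgeR adjusted p 0.0393). Tbata, at 442 ± 468 CPM in MHCII-low mTEC and 2034 ± 1227 CPM in cTEC, missed the threshold with -2.20 ± 0.71 (edgeR adjusted p 0.0554). Dll4 had -2.60 ± 1.38 (0.237), Kitl -1.67 ± 1.40 (0.541), Foxn1 -0.60 ± 1.21 (0.889) and Il7 0.46 ± 0.49 (0.672). Of all genes, 0.49% were called lower by edgeR, 1.66% by DESeq2, which called 3 members (Prss16, Ly75 and Tbata), and 0.0825% had every MHCII-low library below every cTEC library, which no member had. The medians were -2.19 over the members and 0.25 over all genes tested. These mTEC comparisons share their KO cTEC libraries, so they do not repeat each other independently.

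Leaving out KO cTEC replicate 5 kept the Prss16 call in both comparisons, at -5.01 (edgeR adjusted p 0.00374) for MHCII-high and -4.32 (0.0127) for MHCII-low mTEC. Without it Ly75 missed the threshold, at -1.85 (0.0577) and -2.17 (0.0527), while Tbata in MHCII-low mTEC passed it, at -2.40 (0.0361). Prss16 was called in all 14 fits that left out 1 library of either comparison (edgeR adjusted p 0.00374 to 0.0127 for MHCII-high, 0.0105 to 0.0420 for MHCII-low mTEC). Ly75 was called in 4 and 5 of these 14 fits, so its call depended on single libraries while its log2 fold change stayed negative. Kitl in MHCII-high mTEC was called in 1 of the 14 fits, with an edgeR adjusted p of 0.0475. Because 200 sorted cells are read as a bulk, fewer expressing cells and less RNA per cell cannot be told apart in any of these values.

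The number of detected genes was lower on average in KO cTEC than in either KO mTEC population. Thymocyte markers were lower on average in KO MHCII-high mTEC, while KO MHCII-low mTEC and KO cTEC covered much the same range. The summed CPM of 16 thymocyte markers ran from 81.9 to 1163 in KO MHCII-high mTEC, from 223 to 3673 in KO MHCII-low mTEC and from 277 to 3253 in KO cTEC, with up to 13, 6 and 6 of the 16 at 0. The summed CPM of 8 mesenchymal markers ran from 29.9 to 233 in KO MHCII-high mTEC, from 63.7 to 502 in KO MHCII-low mTEC and from 21.8 to 6174 in KO cTEC. The median sums were 108, 158 and 144 CPM. The part of thymocytes and of mesenchymal cells in the differences was not tested. Detected genes numbered 16737 ± 3487 in KO MHCII-high mTEC, 16488 ± 1911 in KO MHCII-low mTEC and 13546 ± 1782 in KO cTEC (SD, n = 7 each). With that number as a term in the fit Prss16 had -4.63 (edgeR adjusted p 0.0333) in MHCII-high and -3.95 (0.0491) in MHCII-low mTEC, and Ly75 had -3.23 (0.00801) and -2.96 (0.0109). Tbata had -0.50 (0.773) and -1.67 (0.178) in the same order, and no other member was called in these fits.

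In the Control genotype, with 4 mTEC and 5 cTEC libraries, the fold changes pointed the same way for the cortical genes and none passed edgeR's threshold. In MHCII-high mTEC against cTEC, Prss16 averaged 55.8 ± 30.5 CPM (SD, n = 4) and 1073 ± 1180 CPM (SD, n = 5), which gave -4.26 ± 1.40 on the log2 scale (edgeR adjusted p 0.102), and Ly75 and Tbata had -1.58 ± 0.80 (0.251) and -1.48 ± 0.88 (0.36). Unadjusted p was under 0.05 for 1 member, DESeq2 called 1 lower (1.04% of genes), limma voom called 0, edgeR called 0.0434% of genes lower, and 1.81% of genes but no member had separate ranges. In MHCII-low mTEC against cTEC, Prss16 had -5.16 ± 1.46 (edgeR adjusted p 0.0774), Tbata -3.29 ± 0.96 (0.0884) and Ly75 -2.61 ± 0.84 (0.119). All 4 MHCII-low libraries lay below all 5 cTEC libraries for these 3 genes, where 1.42% of genes tested did. Unadjusted p was under 0.05 for the same 3, DESeq2 called 3 lower (1.31% of genes), limma voom called 0, and edgeR called 0.0694% of genes lower. Without MHCII-low mTEC replicate 3, the library with 564 CPM of Tbata, Tbata had -4.83 (edgeR adjusted p 0.0250).

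**Figure D2:**
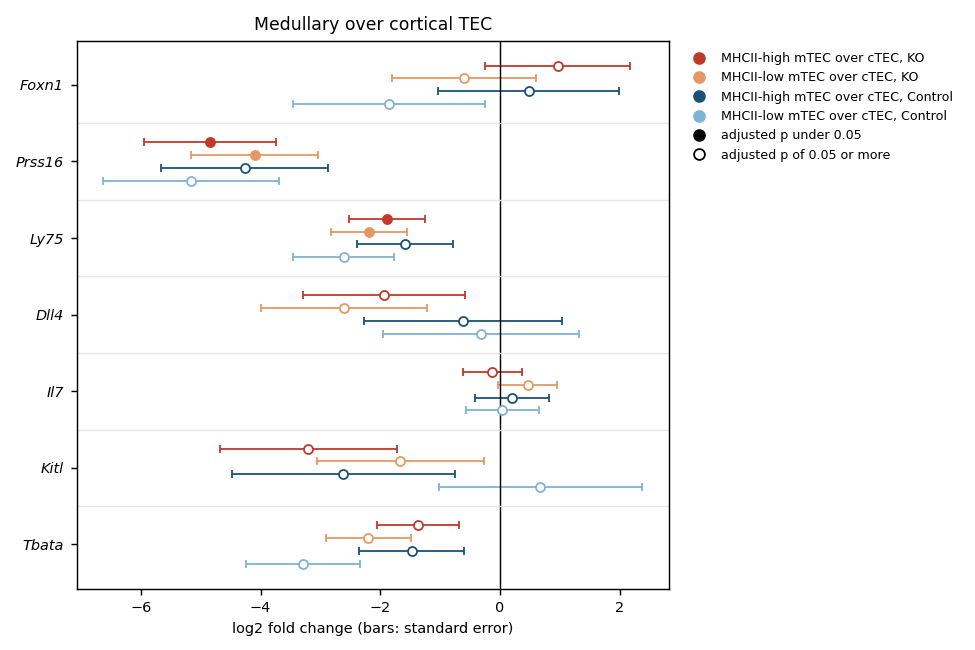
Log2 fold change ± SE of each gene in MHCII-high and MHCII-low mTEC over cTEC, for the KO genotype and then the Control genotype; filled points have an edgeR adjusted p under 0.05. Prss16 lies between -5.16 and -4.10 in the 4 comparisons, Ly75 and Tbata are negative in each, and Il7 and Foxn1 lie near or on either side of 0.

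No member passed the test between MHCII-high and MHCII-low mTEC over all libraries. In KO, Foxn1 differed by 1.56 ± 1.23 on the log2 scale (edgeR adjusted p 0.612), with means of 115 ± 79.8 CPM in MHCII-high and 38.8 ± 44.6 CPM in MHCII-low mTEC (SD, n = 7 each). In Control it had 2.33 ± 1.68 (0.842), and Tbata 1.82 ± 0.92 (0.661). No member was called by edgeR, DESeq2 or limma voom in either genotype, and 0 had an unadjusted p under 0.05, where edgeR called 0.0174% of genes in KO and 0.0% in Control. Within the sets of library numbers the KO values parted. Foxn1 had 7.76 ± 1.62 (edgeR adjusted p 0.0823) in the higher numbers and 1.30 ± 1.004 (0.591) in the lower ones. Its levels in the KO MHCII-low mTEC libraries of higher number were at or near the floor. Il7 had 1.16 ± 0.69 (0.633) and -1.57 ± 0.60 (0.305), and Ly75 1.04 ± 0.80 (0.770) and -1.20 ± 0.70 (0.403), so these 2 genes turned sign between the sets.

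KO and Control were compared in each cell type, the question for which the series was made. No member passed the test in any cell type, and the levels overlapped for all 7. In MHCII-high mTEC the log2 fold changes were 0.79 ± 1.45 for Foxn1, -0.62 ± 1.09 for Prss16, 0.07 ± 0.72 for Ly75, 0.24 ± 0.80 for Tbata, 0.15 ± 1.53 for Dll4, -0.31 ± 0.57 for Il7 and -0.84 ± 1.57 for Kitl. In MHCII-low mTEC they were 1.56 ± 1.51 for Foxn1, 1.02 ± 1.15 for Prss16, 0.79 ± 0.74 for Ly75, 1.22 ± 0.83 for Tbata, -0.82 ± 1.50 for Dll4, 0.44 ± 0.58 for Il7 and -2.60 ± 1.57 for Kitl. The Kitl value turned to 0.72 when Control replicate 3 was left out. In cTEC they were 0.31 ± 1.33 for Foxn1, -0.04 ± 1.03 for Prss16, 0.37 ± 0.68 for Ly75, 0.13 ± 0.74 for Tbata, 1.47 ± 1.49 for Dll4, 0.01 ± 0.54 for Il7 and -0.26 ± 1.48 for Kitl. Without KO cTEC replicate 5 the cTEC values were 0.16 ± 0.98 for Prss16, 0.33 ± 0.71 for Tbata and 0.52 ± 1.36 for Foxn1, again with an edgeR adjusted p of 1. In that fit Ly75 had 0.34 ± 0.71, Dll4 1.41 ± 1.55, Il7 0.13 ± 0.55 and Kitl -0.04 ± 1.48, also with no call.

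The smallest edgeR adjusted p among the members was 1 in MHCII-high mTEC, 0.814 in MHCII-low mTEC and 1 in cTEC. No member had an unadjusted p under 0.05 in any cell type, and DESeq2 and limma voom called 0. Over all genes edgeR called 0.0% in each cell type, while 1586, 1639 and 2443 of 23040 genes had an unadjusted p under 0.05 in MHCII-high mTEC, MHCII-low mTEC and cTEC. Groups did not overlap for 0.399%, 0.317% and 0.152% of genes and for no member. Median log2 fold changes of the members were 0.07, 0.79 and 0.13, against -0.04, 0.00 and 0.00 over all genes tested. Standard errors were 0.54 to 1.57 on the log2 scale, larger for Foxn1, Prss16, Dll4 and Kitl than for the other members. At this number of libraries, changes smaller than several fold were not detectable for any member.

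**Figure D3:**
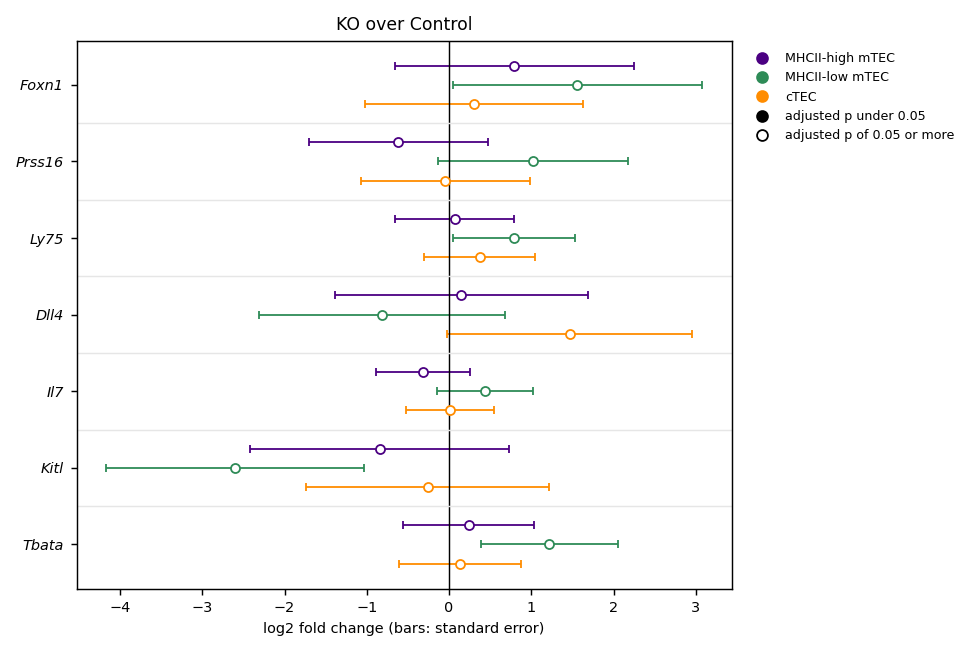
Log2 fold change ± SE of KO over Control for each gene in MHCII-high mTEC, MHCII-low mTEC and cTEC; all points are open because none had an edgeR adjusted p under 0.05. The bars are shortest for Il7, Ly75 and Tbata and longest for Foxn1, Dll4 and Kitl, the largest value being -2.60 for Kitl in MHCII-low mTEC.

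Whether the KO effect differed between cell types was tested for the members as an interaction. No difference was called, at 0.0% of genes in each of the 3 contrasts, with no unadjusted p under 0.05 among the members and no call by DESeq2 or limma voom. For Dll4 the KO effect in MHCII-low mTEC minus that in cTEC was -2.28 ± 2.10, and for Kitl -2.34 ± 2.19 on the log2 scale. Without KO cTEC replicate 5 they were -2.17 ± 2.16 and -2.47 ± 2.14.

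KO against Ski flox Control also gave no call (0.0% of genes in each cell type by edgeR, and no member by DESeq2 or limma voom), and it shares its KO libraries with the comparison above. In MHCII-high mTEC the log2 fold changes ran from -2.32 ± 1.83 for Kitl to 2.02 ± 2.25 for Dll4. In MHCII-low mTEC Prss16 had 3.15 ± 1.77, Tbata 2.29 ± 1.19 and Il7 1.44 ± 0.81, each with an edgeR adjusted p of 0.686. In cTEC all 7 were positive, between 0.15 ± 0.93 for Ly75 and 2.63 ± 2.45 for Kitl, and without KO cTEC replicate 5 between 0.11 ± 0.95 for Ly75 and 2.83 ± 2.41 for Kitl, again with no call. With 2 libraries in Ski flox Control these values have wide errors. Ly75 in MHCII-low mTEC had the smallest unadjusted p, averaging 50.2 ± 40.1 CPM in KO (SD, n = 7) and 210.3 ± 2.42 CPM in Ski flox Control (SD, n = 2), with a log2 fold change of -2.06 ± 0.83, an unadjusted p of 0.0177 and an edgeR adjusted p of 0.686. It was the only member with separate ranges in any cell type, where 4.08% of all genes had them in MHCII-high mTEC, 6.3% in MHCII-low mTEC and 2.62% in cTEC. Summed CPM of 11 dendritic and myeloid markers in MHCII-low mTEC ran from 721 to 5321 in KO, was 2815 and 6486 in Ski flox Control and ran from 888 to 3352 in Control, with up to 5 of the 11 at 0 in KO and none at 0 in Ski flox Control. Their part in the Ly75 level was not tested. All Ski flox Control libraries have higher numbers, and against the KO libraries of higher number alone the Ly75 value was -1.87 ± 0.88. Among these higher-numbered libraries Foxn1 in MHCII-low mTEC stood at 0 to 0.348 CPM in KO against 1.96 and 18.6 CPM in Ski flox Control, a log2 fold change of -5.66 ± 1.56 with an unadjusted p of 0.00106 and an edgeR adjusted p of 1.

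Levels of several members differed between the sets of library numbers. Foxn1 in MHCII-high mTEC ran from 2.78 to 118 CPM in libraries of higher number and from 92.9 to 231 CPM in those of lower number, in MHCII-low mTEC from 0 to 18.6 CPM against 22.6 to 99.2 CPM, and in cTEC from 0 to 28.4 CPM against 23.7 to 160.0 CPM. Its ranges were separate in MHCII-low mTEC, as they were for 1.02% of genes tested. Prss16 in cTEC averaged 343 CPM in the higher numbers against 1556 CPM in the lower ones, Tbata 1030.3 against 2723 CPM, and Kitl 2.22 against 18.2 CPM. Ly75 in MHCII-high mTEC went the other way, with 68.4 to 173 CPM in the higher numbers and 1.07 to 41.7 CPM in the lower ones, where 1.77% of genes had separate ranges. In cTEC its ranges overlapped, at 188 to 338 CPM against 94.8 to 332 CPM. The summed CPM of 5 cortical markers in cTEC averaged 2887 in the higher numbers against 7561 in the lower ones. Ranges were 186 to 6912 and 3119 to 14711. The sum of 8 medullary markers in cTEC averaged 1070 against 639, with ranges of 851 to 1692 and 340 to 1136. In MHCII-high and MHCII-low mTEC the medullary sum averaged 2259 and 902 against 2648 and 1584. Because the sets were drawn at a boundary known from these data, these are values with no test.

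Some markers of other cells moved with library number as well, and others did not. Summed CPM of 16 thymocyte markers in MHCII-high mTEC ran from 617 to 1163 in the higher numbers against 81.9 to 1117 in the lower ones, and in MHCII-low mTEC from 1672 to 3673 against 223 to 1422. Up to 1 and 2 of the 16 were at 0 in the higher numbers, and up to 13 and 8 in the lower ones. In cTEC the thymocyte sum ran from 1662 to 2800 against 277 to 4564, with like means of 2097 and 2250 CPM. The dendritic and myeloid sum ran from 1898 to 2626 against 984 to 2899.8 in MHCII-high mTEC and from 2045 to 3355 against 514 to 2469 in cTEC, and overlapped in MHCII-low mTEC at 888 to 6486 against 721 to 5321. The sum of 8 mesenchymal markers in cTEC averaged 260.0 CPM in the higher numbers against 1417 CPM in the lower ones, with ranges of 21.8 to 891 and 6.46 to 6174. Their part in the levels of Foxn1, Prss16, Tbata, Kitl and Ly75 was not tested.

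Within each set the comparison of MHCII-high mTEC with cTEC in KO gave Prss16 -3.82 ± 1.63 in the higher numbers (edgeR adjusted p 0.379) and -5.18 ± 1.50 in the lower ones (0.0387). Ly75 had -1.17 ± 0.80 (0.544) and -3.37 ± 0.76 (0.00899). Those were 2 of 7 members in the lower numbers, where 1.92% of genes were called lower. Kitl, called by limma voom over all libraries, had -0.0061 ± 1.85 in the higher numbers and -6.80 ± 2.11 (edgeR adjusted p 0.0530) in the lower ones. In MHCII-low mTEC Prss16 had -2.37 ± 1.53 and -5.01 ± 1.49, Ly75 -2.21 ± 0.83 and -2.17 ± 0.72, and Tbata -1.49 ± 0.93 and -2.44 ± 0.83, with no edgeR adjusted p under 0.05. Signs for these 3 genes were the same in both sets. Foxn1 in KO MHCII-low mTEC over cTEC had -5.67 ± 1.52 (edgeR adjusted p 0.205) in the higher numbers and -0.49 ± 0.99 (0.912) in the lower ones. In Control MHCII-high mTEC over cTEC it had 6.04 ± 1.84 (0.431) and 0.50 ± 1.26 (0.996). KO against Control within the sets gave Foxn1 in cTEC 5.06 ± 1.74 in the higher numbers and 0.27 ± 1.07 in the lower ones. In MHCII-low mTEC it had -2.95 ± 1.57 and 1.45 ± 1.30, so its sign turned between sets there. None of these Foxn1 values had an edgeR adjusted p under 0.05. In the higher numbers 3 KO libraries, replicate 5 among those of cTEC, were set against 2 Control libraries. Foxn1 lay at or near the floor in these Control cTEC and KO MHCII-low mTEC libraries, so its fold changes in the higher numbers that involve them rest on few counts. Tbata in MHCII-low mTEC had 2.91 ± 1.15 and 0.66 ± 0.99, with an edgeR adjusted p of 1 in both.

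**Figure D4:**
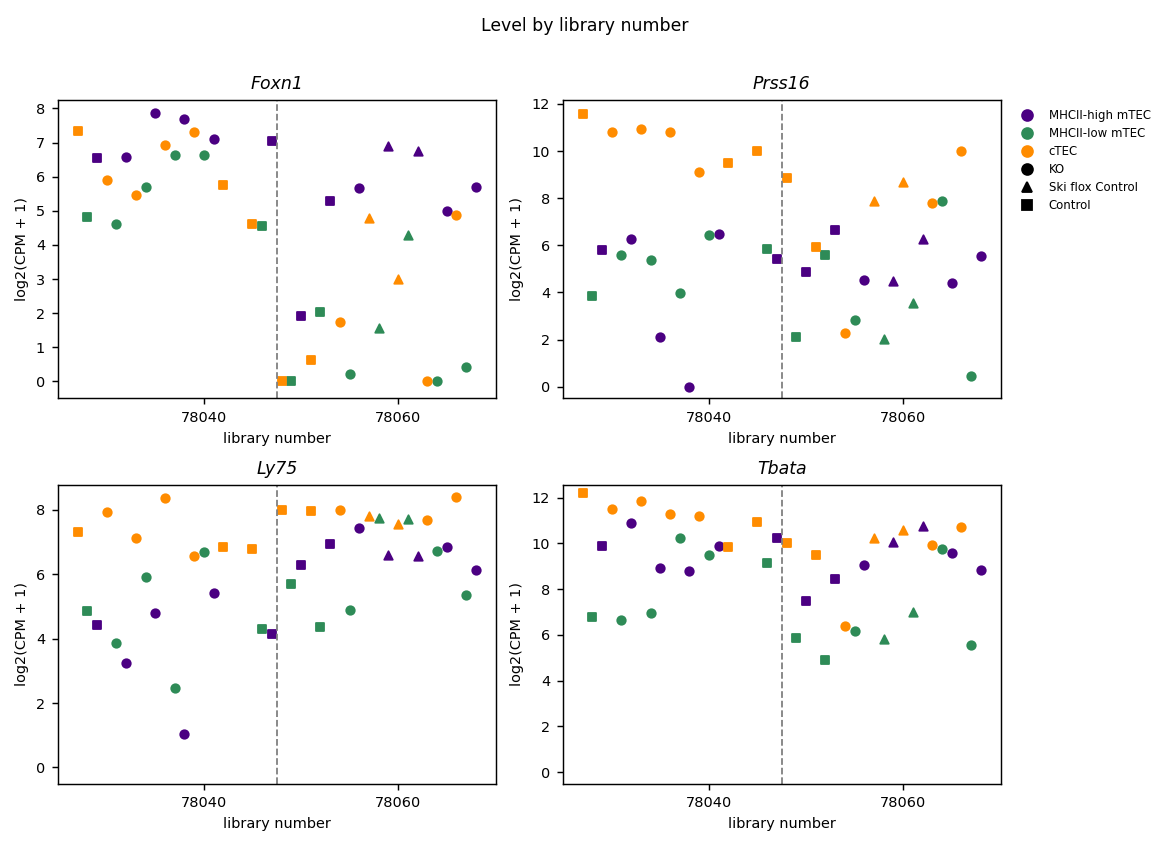
Log2(CPM + 1) of Foxn1, Prss16, Ly75 and Tbata against library number, with cell type by colour, genotype by marker and a dashed line between the sets of lower and higher numbers. Right of the line Foxn1 falls to 0 in 4 libraries and Ly75 in MHCII-high mTEC stands at 68.4 CPM or more, while Ly75 in cTEC overlaps across the line.

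Other genes of the same pathways were read from lists chosen with earlier results of these data known. Of 4 FOXN1 targets beside the members (Psmb11, Ccl25, Cxcl12 and Cd83), all had negative fold changes in mTEC over cTEC in both genotypes. In KO edgeR called 2 of the 4 lower in each mTEC population, where 1.82% of all genes tested were called lower in MHCII-high and 0.49% in MHCII-low mTEC. Cxcl12, a chemokine for thymocyte precursors, averaged 9.80 ± 10.1 CPM in MHCII-high mTEC and 605 ± 474 CPM in cTEC (SD, n = 7 each), with -5.95 ± 0.95 (edgeR adjusted p 0.000227), and -4.06 ± 0.86 (0.00667) in MHCII-low mTEC. Psmb11 had -6.40 ± 1.28 (0.00222) and -5.13 ± 1.20 (0.0118). The part of mesenchymal cells in the Cxcl12 level was not tested. In Control edgeR called Cxcl12, in MHCII-high mTEC, at -5.70 ± 1.22 (0.0147), where it called 0.0434% of genes lower. DESeq2 called 3 of the 4 in each KO comparison, 2 in Control MHCII-high and 4 in Control MHCII-low mTEC, and limma voom called 0 of them in all 4 comparisons. Of 5 other cortical genes, edgeR called 2 lower in each KO comparison: Ctsl, the cathepsin of cortical epithelium that processes MHC class II ligands, at -3.99 ± 0.70 (0.000618) in MHCII-high and -2.06 ± 0.64 (0.0494) in MHCII-low mTEC, and Cd274, which encodes PD-L1, at -0.98 ± 0.31 (0.0345) and -1.09 ± 0.31 (0.0374). In Control MHCII-high mTEC over cTEC Ctsl was called as well, with 219.6 ± 128 CPM in MHCII-high mTEC (SD, n = 4) and 2381 ± 2221 CPM in cTEC (SD, n = 5), at -3.44 ± 0.88 (edgeR adjusted p 0.0449). DESeq2 called 2 of these 5 in each KO comparison, 2 in Control MHCII-high and 1 in Control MHCII-low mTEC, and limma voom called 0. Without KO cTEC replicate 5 edgeR still called Cxcl12, Psmb11, Ctsl and Cd274 in both KO comparisons, with adjusted p from 0.000199 for Cxcl12 to 0.0438 for Cd274, both in MHCII-high mTEC.

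Among 5 Notch ligands and ligand-activating genes, the 1 edgeR call in each KO comparison was Dll3, a Notch ligand relative that in mouse acts mainly as an inhibitor. It had 3.87 ± 5.73 CPM in MHCII-high mTEC and 3.50 ± 6.87 CPM in MHCII-low mTEC and no count in any KO cTEC library, with an SD above its mean in both mTEC populations. Without KO cTEC replicate 5 its edgeR adjusted p was 0.0431 in MHCII-high and 0.0666 in MHCII-low mTEC. limma voom called 1 gene of this list in KO MHCII-high, 0 in KO MHCII-low and 1 in Control MHCII-low mTEC over cTEC. Of all genes tested edgeR called 12.9% higher in KO MHCII-high and 5.19% higher in KO MHCII-low mTEC over cTEC. None of 5 further thymopoietic cytokines was called by edgeR or limma voom in mTEC over cTEC, where DESeq2 called 1 in MHCII-low mTEC of each genotype and 1 in each had an unadjusted p under 0.05. Il15, which supports natural killer and intraepithelial lineages, had -1.35 ± 0.43 (edgeR adjusted p 0.0545) in KO and -2.21 ± 0.57 (0.0528) in Control MHCII-low mTEC over cTEC. The next most abundant, Il18, had 0.96 ± 1.17 (0.729) in KO and 0.37 ± 1.45 (1) in Control. Of 5 chemokines, 3 were tested, and beside Cxcl12 edgeR called Ccl19, a CCR7 ligand, at 3.26 ± 0.92 (0.0208) in KO MHCII-high mTEC and at an adjusted p of 0.0359 without KO cTEC replicate 5. DESeq2 called all 3 in KO MHCII-high mTEC and 2 in each of the other mTEC over cTEC comparisons, and limma voom called 1, in KO MHCII-high mTEC. None of 4 neddylation genes linked to TBATA (Uba3, Nae1, Ube2m and Nedd8) was called in mTEC over cTEC by edgeR, DESeq2 or limma voom, and 1 had an unadjusted p under 0.05, in KO MHCII-high mTEC.

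KO against Control called no gene of any of the 7 lists in any cell type by edgeR. The 2 most abundant FOXN1 targets in cTEC differed by less than their spread, with Ccl25 at 1435 ± 921 CPM in KO (SD, n = 7) and 1535 ± 1634 CPM in Control (SD, n = 5), a log2 fold change of -0.10 ± 0.90, and Cd83 at 1239 ± 518 and 1362 ± 644 CPM, at -0.14 ± 0.77. Psmb11 in cTEC had -0.31 ± 1.10. The 2 most abundant neddylation genes in cTEC, Nedd8 and Nae1, had 0.19 ± 0.21 and 0.31 ± 0.36. Over the 7 lists and 3 cell types 0 genes had an unadjusted p under 0.05, and DESeq2 and limma voom called 0. KO against Ski flox Control gave 0 calls by edgeR over these lists. There DESeq2 called 1 of the other cortical genes, 1 of the Notch list and 3 of the list of transcription factors and upstream signals in cTEC, and 2 of the other cortical genes in MHCII-low mTEC. limma voom called 1 neddylation gene, in MHCII-low mTEC.

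Likeness of pattern was measured as Pearson's r of log2 CPM over the 40 libraries, among 12192 genes, and describes libraries that share cell types and library numbers. Tbata ran closest to Ccl25 (r = 0.85), Cstb (0.85) and Slc25a4 (0.80), and Prss16 to Kcnn3 (0.80), Psmb11 (0.80) and Diras2 (0.79). Ly75 ran closest to Cnn2 (0.82), Zfp945 (0.81) and Sinhcaf (0.81), and Foxn1 to Epb41l3 (0.75), Vars (0.74) and Srxn1 (0.74). Genes close to Kitl were Synm (0.73), Pros1 (0.64) and Kctd1 (0.61), those close to Il7 included C1s1 (0.66) and Ifitm2 (0.63), and those close to Dll4 were Bcor (0.62), Espl1 (0.49) and Mknk2 (0.49). Among the members the closest pair was Prss16 and Tbata (0.73), followed by Prss16 and Kitl (0.54), Prss16 and Ly75 (0.52) and Foxn1 and Tbata (0.50). Foxn1 had an r of 0.19 with Prss16 and -0.26 with Ly75.

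Promoter windows were shown for Kitl, the only member whose window held the motif, for Tbata, the most abundant member, and for the FOXN1 target Psmb11, from 250 bases before to 50 bases after the RefSeq transcript start (GRCm38.p6), with the core letters of the FOXN1 motif, GACGC on either strand (GCGTC when read on the printed strand), in capitals. RefSeq windows were matched for 5 of the 7 members, Foxn1, Ly75, Dll4, Kitl and Tbata.
Kitl (chr10:100015571-100015870, plus strand): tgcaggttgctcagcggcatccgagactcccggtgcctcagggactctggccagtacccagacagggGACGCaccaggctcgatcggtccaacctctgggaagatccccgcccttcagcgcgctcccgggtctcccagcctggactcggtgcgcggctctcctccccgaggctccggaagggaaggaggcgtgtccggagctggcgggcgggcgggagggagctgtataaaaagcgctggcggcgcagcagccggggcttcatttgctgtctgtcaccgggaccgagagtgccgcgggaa
Tbata (chr10:61171714-61172013, plus strand): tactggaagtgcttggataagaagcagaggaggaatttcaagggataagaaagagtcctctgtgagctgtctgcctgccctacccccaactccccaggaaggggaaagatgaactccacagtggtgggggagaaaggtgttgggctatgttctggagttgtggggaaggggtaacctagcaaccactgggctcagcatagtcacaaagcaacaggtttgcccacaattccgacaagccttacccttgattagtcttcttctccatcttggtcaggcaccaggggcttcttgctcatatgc
Psmb11 (chr14:54625060-54625359, plus strand): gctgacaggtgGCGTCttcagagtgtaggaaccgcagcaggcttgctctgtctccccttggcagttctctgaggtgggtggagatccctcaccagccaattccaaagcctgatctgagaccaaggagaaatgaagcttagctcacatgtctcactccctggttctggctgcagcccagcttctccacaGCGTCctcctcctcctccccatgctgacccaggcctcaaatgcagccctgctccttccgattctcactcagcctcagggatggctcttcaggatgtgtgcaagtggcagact
The window of Psmb11 held the letters at 2 places, beginning 239 and 62 bases before the start, and that of Kitl at 1, beginning 183 bases before it. Tbata, Foxn1, Ly75 and Dll4 held none. Of 32851 windows of the same length, 27.2% held the motif at least once, so 1 of 5 members is a share of the size found in all promoters. A match describes letters in a window and no binding site, and its absence says nothing of FOXN1 at these genes.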

How the data were processed

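Libraries were made with a full-length low-input kit (SMART-Seq v4) from 200 sorted cells, per the labels. The deposited values are raw read counts per Ensembl gene, made by the authors with HTSeq 0.4.1 on GRCm38, with Picard 1.134, FastQC 0.11.3 and SAMtools 1.2 also named, per the submitters' processing notes. Not given in the sources used here were the aligner, the annotation and the strand setting. Symbols and positions came from GENCODE M21 (53360 of 53465 identifiers matched). Libraries under 100000 counts were left out, and 40 of 42 remained, with 3217251 to 7068077 counts. CPM are counts per 1000000 of these totals, each total being scaled by its TMM normalisation factor. Groups came from the labels' cell type and genotype, and replicate numbers, given in accession order, only name libraries.

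All 9 groups were fitted together with edgeR 4.0.16 (TMM, filterByExpr with a minimum count of 10, quasi-likelihood test, R 4.3.3), and p-values were adjusted over 23040 genes. Alternatives used DESeq2 1.42.0, limma 3.58.1 voom, other scalings, filters and samples, added terms and leaving out each library. Summaries used pandas 2.3.3, NumPy 2.4.6 and matplotlib 3.10.9 under Python 3.11.15. Values are given for the 7 members, for 3 checks (Ski, Psmb11, Aire), for list genes past the threshold or of highest level, and for the 3 genes most like each member among those whose median reached 10 CPM in a group. The members and lists were chosen with earlier results of these data known. Values of some genes that this rule names, and the mTEC over cTEC result of the list of transcription factors and upstream signals, are not reported here.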

Additional observations from a re-analysis of the deposited data

Results flagged for a closer look

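A library stood far from the others of its group in 8 of 42 groups tested (each member in each group of 4 to 7 libraries). The rule's expected rate was about 1 in 20 groups. All flagged libraries stood above the others of their group, and that rate was not checked for CPM with a long upper tail. No excess over chance is therefore read from this count. In MHCII-high mTEC, KO replicate 6 had 43.1 CPM of Dll4 (others 0 to 14.7), KO replicate 5 had 5.94 CPM of Kitl (others 0 to 1.55), and KO replicate 1 had 1877 CPM of Tbata (others 443 to 952). In MHCII-low mTEC, KO replicate 6 had 231 CPM of Prss16 (others 0.348 to 85.3), and its summed CPM of 5 cortical markers was 2052. KO replicate 3 had 32.6 CPM of Dll4 (others 0 to 8.92). Control replicate 3 of MHCII-low mTEC stood out in 2 genes, with 76.3 CPM of Kitl (others 0 to 5.40) and 564 CPM of Tbata (others 28.7 to 109.9), and it had a summed CPM of 8 endothelial markers of 1159 (other Control libraries 95.4 to 134), whose part in Kitl was not tested. In cTEC, KO replicate 1 had 113 CPM of Dll4 (others 0.566 to 46.8). The library labelled KO cTEC replicate 5 had a cortical marker sum of 186 CPM, where other cTEC libraries had 1555 to 14711, and its 83.9 CPM of Tbata and 3.90 CPM of Prss16 were the lowest in cTEC.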

How the results depend on the processing

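No paired analysis was possible because the labels give no replicate numbers that tie libraries of different groups. Counts of members called moved for mTEC over cTEC only. In KO MHCII-high mTEC 2 were called, against 1 when no gene was filtered out, 1 when the fit held the 2 groups alone and 1 to 3 when each library was left out. In KO MHCII-low mTEC 2 were called, against 1 by limma voom, 0 with only the groups compared and 1 to 3 when each library was left out. In Control MHCII-high mTEC 0 were called, against 1 by DESeq2 and 1 with only the groups compared. In Control MHCII-low mTEC 0 were called, against 3 by DESeq2, 1 with only the groups compared, 1 with the library set as a term, 1 with the number of detected genes as a term and 0 to 1 when each library was left out. Prss16 was not called by limma voom (adjusted p 0.571 in MHCII-high and 0.603 in MHCII-low KO mTEC). The cause was not tested in any of these.

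No call turned its direction. Uncalled log2 fold changes of KO over Control that changed sign, all with an adjusted p over 0.05, were as follows. In MHCII-high mTEC, voom gave Ly75 -0.43 and Dll4 -0.83, pooling the control genotypes gave Ly75 -0.20 and Tbata -0.21, using all 42 libraries gave Tbata -0.070, and the detected-genes term gave Dll4 -0.11, Tbata -0.14 and Il7 0.00070. In MHCII-low mTEC, voom gave Prss16 -0.059 and pooled controls gave Ly75 -0.86. In cTEC, the detected-genes term gave Foxn1 -0.46, Kitl 0.47 and Tbata -0.54, the set term Prss16 0.010 and Il7 -0.031, pooled controls Prss16 0.23 and Kitl 0.11, voom Il7 -0.089 and Kitl 0.15, and Il7 had -0.019 without a filter and -0.018 with a filter of 10 CPM in 5 libraries. For Kitl in Control MHCII-low mTEC over cTEC, voom gave -0.85. Leaving out each library gave, in MHCII-high mTEC, Ly75 -0.44 to 0.71, Dll4 -0.98 to 0.39 and Tbata -0.14 to 0.68, in MHCII-low mTEC Il7 -0.11 to 1.06 and Kitl -3.02 to 0.72, and in cTEC Foxn1 -0.17 to 1.59, Prss16 -0.44 to 0.85, Il7 -0.29 to 0.41, Kitl -0.85 to 0.64 and Tbata -0.15 to 0.80. For Kitl in Control MHCII-low mTEC over cTEC the range was -2.65 to 1.53. DESeq2's size factors shifted the median gene by 0.11 to 0.15 (log2) for KO over Ski flox Control and by less than 0.1 in every other comparison. Levels of Kitl and Dll4 in single libraries rest on few counts (1428 and 2878 in all).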
